A study of Homo sapiens with 6 samples.

Results

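The nuclear-encoded subunits of the mitochondrial respiratory chain and of ATP synthase were examined in KYSE30, an established human cell line of oesophageal squamous cell carcinoma. The members are the protein-coding genes outside the mitochondrial genome whose symbols begin with NDUF (A, B, C, S or V and a number), SDHA to SDHD, UQCR, COX4 to COX8 or ATP5. These are 90 of the 58735 genes in the table: 37 of complex I, 4 of complex II, 9 of complex III, 19 of complex IV and 21 of complex V. The rule used gene names and no measured value.

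The cells had received siRNA against RAB23 (si-RAB23-9 or si-RAB23-1) or a control siRNA (si-NC), each at 100 nM with the HiPerFect reagent, and total RNA was taken with Trizol near 80% confluence. RAB23 encodes a small GTPase of membrane traffic, known for restraining the Hedgehog pathway. Each of the 3 groups holds 2 libraries of the same cell line with no other genetic change named, and nothing says that they came from separate cultures, so each p-value rests on library-to-library spread that may be technical. RNA was bulk RNA from whole cultures, and fewer cells of a kind and less RNA per cell cannot be told apart in it.

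The respiratory chain passes electrons to oxygen and pumps protons across the inner mitochondrial membrane. Complex I (NADH dehydrogenase) and complex II (succinate dehydrogenase, also an enzyme of the citric acid cycle) feed electrons in, complex III passes them to cytochrome c, and complex IV (cytochrome c oxidase) gives them to oxygen. Complex V, the ATP synthase, uses the proton gradient to make ATP. Apart from complex II, each complex joins subunits made in the cytosol with a few made from mitochondrial DNA, and the nuclear genes are background targets of the transcription factors NRF1, GABP (an ETS factor) and YY1.

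The targeted gene fell with both siRNAs. RAB23 had 1.18 and 1.27 FPKM (fragments per unit of gene length and of sequencing depth) in si-RAB23-9 libraries, 1.03 and 1.10 FPKM in si-RAB23-1 libraries, and 3.27 and 3.33 FPKM in si-NC libraries. On the log2(FPKM + 1) scale it changed by -0.95 with si-RAB23-9 (limma adjusted p = 0.00392) and by -1.06 with si-RAB23-1 (0.00314). Recovered reads per library ranged from 17211025 to 24178125, with si-RAB23-1 replicate 1 the shallowest and si-NC replicate 1 the deepest. The libraries of a group differed beyond counting noise, with a chi-square per degree of freedom of 1.8 (si-RAB23-9), 3.69 (si-RAB23-1) and 2.42 (si-NC). Of 8 squamous epithelial markers, 7 passed the filter on low values, and their summed level was 127.2 to 131.9 FPKM with si-RAB23-9, 151.9 to 156.7 FPKM with si-RAB23-1 and 99.9 to 105.7 FPKM with si-NC. KRT5, a keratin of basal squamous cells, was the marker below the filter. At a limma adjusted p under 0.05 against si-NC, 2 of the 7 were higher and 1 lower with si-RAB23-9 (median log2 fold change 0.06). With si-RAB23-1, 6 were higher and none lower (median 0.44). Over all genes tested, 13.3% passed with si-RAB23-9 and 15.4% with si-RAB23-1. The fibroblast markers summed to 3.44 to 3.92 FPKM, the endothelial markers to 1.62 to 3.79 FPKM, the leukocyte markers to at most 0.825 FPKM and the columnar epithelial markers to at most 0.689 FPKM in every library. The squamous sum moved with both siRNAs and the endothelial marker CDH5 fell with si-RAB23-1 (-0.77 on the log2 scale, limma adjusted p = 0.0112, and up to 0.0736 without either si-NC library), and the part of either in the values below was not tested.

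Members had very unequal levels in FPKM, which divides reads by the length of all annotated exons of a gene. Of the 90, 80 reached 1 FPKM in at least 2 libraries and were tested. Their mean over the 6 libraries ran from 1.11 to 304.2 FPKM with a median of 29.9 FPKM. By complex, the median was 17.4 FPKM for complex I, 15.5 for complex II, 36.3 for complex III, 47.4 for complex IV and 29.1 for complex V. The member with the most RNA per length was ATP5F1B, the catalytic beta subunit of the ATP synthase head, with 318 and 308 FPKM in si-RAB23-9 libraries, 292 and 279 FPKM in si-RAB23-1 libraries, and 318 and 310 FPKM in si-NC libraries. After it came NDUFS5 (256.5 FPKM on average), COX8A (240.6), UQCRH (183.5), COX6B1 (165.2) and NDUFB7 (116.0), all small subunits without a redox centre. COX8A shares 34.5% of its exon bases with another gene on the same strand, so its level is uncertain. Together the members took 0.732% to 0.758% of the recovered reads.

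**Figure D1:**
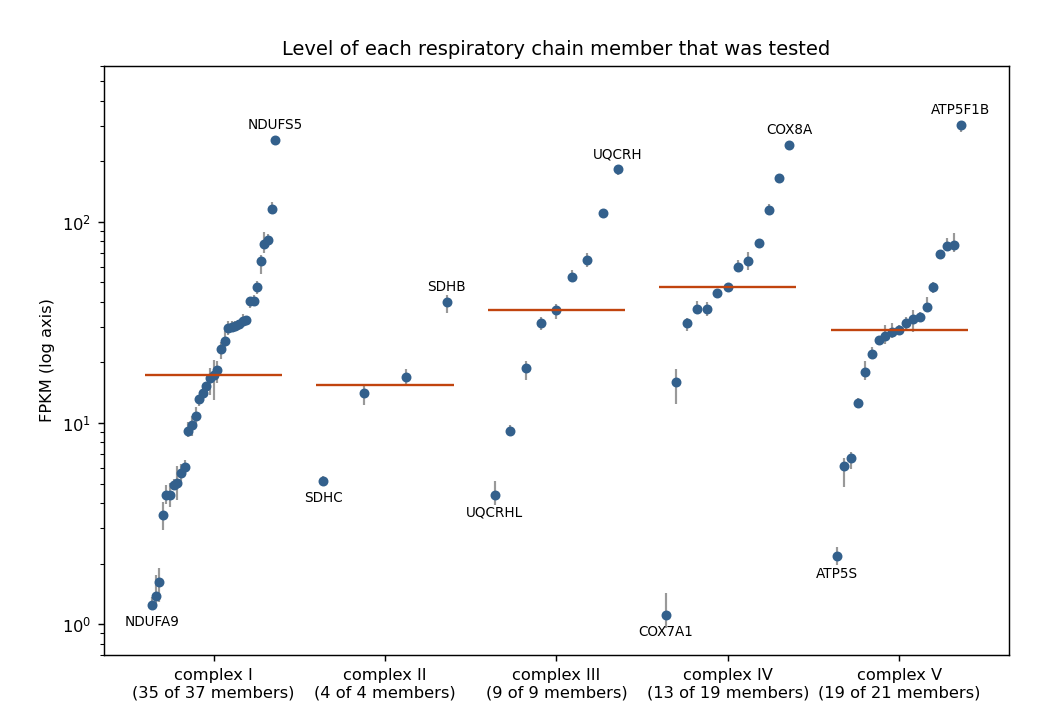
Mean FPKM over the 6 libraries (points, log axis) of the 80 members tested, sorted within each complex, with grey bars from the lowest to the highest library and a red line at the median of the complex. Members of 1 complex span up to 2 orders of magnitude, while the 6 libraries of a member lie close together.

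In FPKM, the nuclear core subunits of complex I described here, except NDUFV1, lay below the median of its accessory subunits. This order depends on the exon length used. NDUFS1 (12268 bases) had 8807 reads over all libraries, and the accessory NDUFA1 (766 bases) had 7332 reads and 81.0 FPKM. Of the NADH-oxidising arm, NDUFV1, which binds the flavin, averaged 30.9 FPKM, NDUFS1 averaged 6.03 FPKM and NDUFV2 averaged 1.38 FPKM. Of the quinone-reducing arm, NDUFS8 averaged 18.4 FPKM, NDUFS3 15.2 FPKM and NDUFS7 4.91 FPKM. The 28 accessory subunits tested had a median of 24.4 FPKM. NDUFV2 shares 28.4% of its exon bases with a gene on the same strand and rests on 450 reads over all libraries, and reads assigned to its pseudogene came to 42.7% of its own.

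Several single-copy subunits near the filter overlap another gene. Among the 78 tested members that are not paralogs, isoforms or readthrough genes, 23 share exon bases with a gene on the same strand and had a median of 14.1 FPKM, and the 55 that share none had a median of 32.0 FPKM. Of the 8 such members under 5 FPKM, 5 share exons in this way, among them NDUFA9 (1.2 FPKM), NDUFV2, NDUFA13 (1.63 FPKM) and NDUFB8 (3.48 FPKM). NDUFA7, an accessory complex I subunit with 32.3% of its exon bases shared, was below the filter at 0.434 to 1.11 FPKM. The genes that overlap NDUFA7, NDUFA9, NDUFA11, NDUFB8 and NDUFV2 were themselves at 0 to 0.109 FPKM, whereas the pair that overlaps NDUFA13 averaged 3.73 FPKM (YJEFN3) and 1.02 FPKM. The part of read assignment in these low values was not tested.

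Where a subunit has alternative genes, KYSE30 cells held RNA of the ubiquitous form. COX4I1 averaged 47.4 FPKM, and its lung and hypoxia form COX4I2 had 1 read in 6 libraries. COX6A1 averaged 36.9 FPKM, and its heart and muscle form COX6A2 had 0 reads, where 3 reads in a library would be at most 0.335 FPKM. COX7A2 averaged 63.9 FPKM, against 1.11 FPKM for the heart and muscle form COX7A1. COX4I2 and COX6A2 lay under 3 reads in every library, and COX7A1 was detected in each, with 134 reads in all. COX6B2, a testis form, had 0.118 to 0.241 FPKM, against 165.2 FPKM on average for COX6B1. COX7B averaged 31.4 FPKM and COX7B2 had 0 reads, where 3 reads would be at most 0.224 FPKM. COX8C had 1 read in all, beside 240.6 FPKM for COX8A. NDUFA4, named for complex I but now regarded as a complex IV subunit, averaged 36.8 FPKM, and its hypoxia-linked paralog NDUFA4L2 had 0.462 to 0.755 FPKM. The c-ring protein of ATP synthase, which 3 genes encode as the same mature protein, had RNA from ATP5MC3 (33.8 FPKM), ATP5MC2 (29.1 FPKM) and ATP5MC1 (27.2 FPKM). Their reads over all libraries were 27265, 13841 and 8494, on exon lengths of 6780, 3991 and 2615 bases. The likeness in FPKM thus rests on the lengths used. UQCRHL, a near copy of the complex III gene UQCRH, had 4.40 FPKM beside 183.5 FPKM, and reads could have been assigned to either.

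Few members changed, and those that changed moved by small amounts. With si-RAB23-9, 7 of the 80 members tested passed the threshold against si-NC (limma, adjusted p under 0.05 over all 14352 genes tested), 4 higher and 3 lower, or 8.75%. Over all genes tested, 13.3% passed, 7.56% higher and 5.69% lower. With si-RAB23-1, 7 of 80 members passed against si-NC, 6 higher and 1 lower, or 8.75%, where 15.4% of all genes passed, 8.13% higher and 7.26% lower. Within limma, median-of-ratios scaling gave 4 higher and 3 lower for si-RAB23-9 and 6 higher and 2 lower for si-RAB23-1, and quantile normalization gave 2 higher and 5 lower for si-RAB23-9 and 5 higher and 4 lower for si-RAB23-1. The voom fits to recovered reads, which change the fit as well, gave 3 higher and 7 lower for si-RAB23-9 under both scalings. For si-RAB23-1 voom gave 6 higher and 10 lower with library totals, and 9 higher and 8 lower with median-of-ratios sizes. The share of all genes that passed in each alternative is not given, so these counts describe the members alone. The same 2 si-NC libraries serve both comparisons. Leaving out a library of the group not compared changes no fold change, only the shared estimate of spread and its degrees of freedom. Without si-RAB23-9 replicate 1 or 2 or si-NC replicate 1 or 2, 0 members passed with si-RAB23-9 in limma (10 to 18 at an unadjusted p under 0.05), against 21 of 80 at that unadjusted level with all libraries. Without si-RAB23-1 replicate 1 or either si-RAB23-9 library 3 passed with si-RAB23-1, and without either si-NC library 1 did. In the 9 alternatives that left out no library, 4 of the 7 calls with si-RAB23-9 and 3 of the 7 with si-RAB23-1 held in every one.

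The typical member moved less than the typical gene. The median log2 fold change of the members was -0.03 with si-RAB23-9 and -0.01 with si-RAB23-1, against 0.01 for all genes tested in both. The median of its absolute value was 0.07 for members and 0.12 for all genes with si-RAB23-9, and 0.09 for members and 0.13 for all genes with si-RAB23-1. Past 0.25 in either direction were 5 members (6.25%) with si-RAB23-9, against 20.9% of all genes, and 2 members (2.5%) with si-RAB23-1, against 22.4% of all genes. Among genes between 12.2 and 47.5 FPKM, the interquartile range of the members, 15.0% of 40 members passed with si-RAB23-9 against 22.4% of 3063 other genes, and 7.5% of members passed with si-RAB23-1 against 25.6% of the others. In that range the median absolute log2 fold changes were closer, 0.082 for members and 0.107 for other genes with si-RAB23-9. With si-RAB23-1 they were 0.081 and 0.113. These shares are descriptions of the list and were not tested.

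Between si-RAB23-9 and si-RAB23-1, 15 of the 80 members passed the threshold, 5 higher and 10 lower with si-RAB23-9, or 18.8%. This was near the share of all genes tested, of which 21% passed in this comparison, 11.1% higher and 9.89% lower. Without si-RAB23-1 replicate 1 the count was 5, without either si-RAB23-9 library 2, and without either si-NC library, or with only the 4 libraries compared, 6. Of the 15 calls, 5 held in every alternative that left out no library. The voom fits gave 10 higher and 12 lower with library totals and 8 higher and 13 lower with median-of-ratios sizes. Here too the shares of all genes in the alternatives are not given. The median of the absolute log2 fold change was 0.09 for members and 0.14 for all genes.

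**Figure D2:**
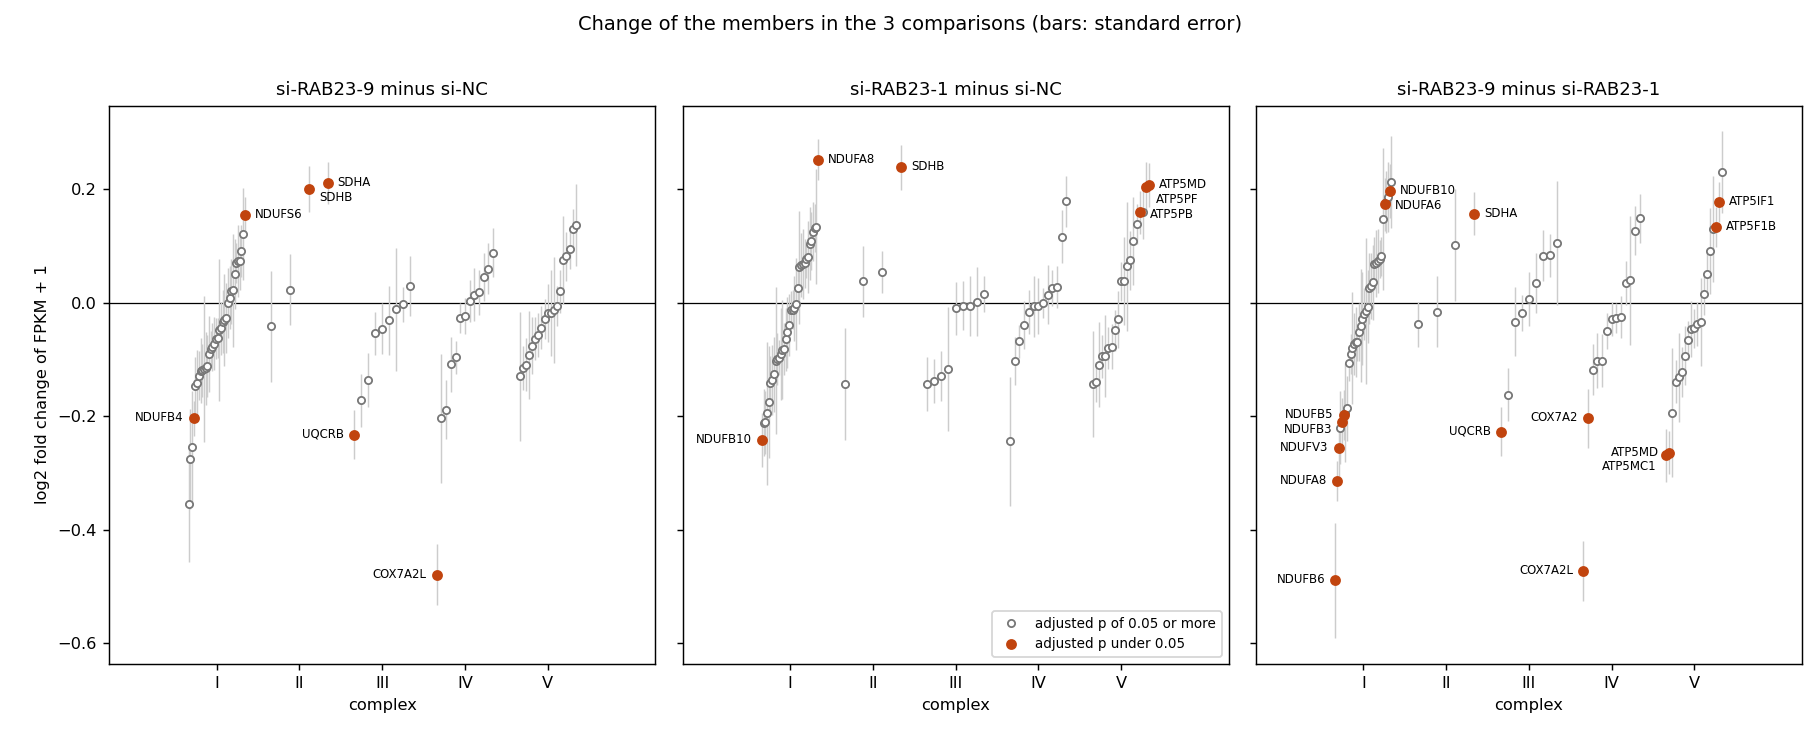
Log2 fold change of FPKM + 1 of the tested members, by complex, in the 3 comparisons, with 1 member not shown and bars of 1 standard error. Filled points have a limma adjusted p under 0.05. Most members lie within 0.25 of 0, and COX7A2L and NDUFB6 stand lowest where si-RAB23-9 is compared with si-RAB23-1.

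The nuclear core subunits of complex I described here did not pass the threshold in any comparison. NDUFV1 had 31.4 and 31.2 FPKM in si-RAB23-9 libraries, 30.5 and 30.8 FPKM in si-RAB23-1 libraries, and 32.7 and 29.1 FPKM in si-NC libraries. NDUFS1 had 6.01 and 6.02 FPKM with si-RAB23-9, 5.8 and 5.58 FPKM with si-RAB23-1, and 6.53 and 6.22 FPKM with si-NC. NDUFS8, which carries iron-sulfur clusters, had 20.3 and 19.5 FPKM with si-RAB23-9, 15.9 and 18.3 FPKM with si-RAB23-1, and 19.2 and 17.3 FPKM with si-NC. Its si-RAB23-1 libraries overlapped those of si-NC, and its si-RAB23-9 libraries lay just above them. NDUFS3 lay between 14 and 15.9 FPKM, NDUFS7 between 4.62 and 5.28 FPKM and NDUFV2 between 1.22 and 1.75 FPKM over all 6 libraries.

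Among the accessory subunits of complex I, different genes passed with each siRNA. NDUFA8, a subunit of the intermembrane space side, had 72.4 and 70.0 FPKM in si-RAB23-9 libraries, 88 and 89.6 FPKM in si-RAB23-1 libraries, and 75.9 and 72.9 FPKM in si-NC libraries. It was highest with si-RAB23-1, with no overlap. The log2 fold change was 0.25 ± 0.04 for si-RAB23-1 over si-NC (limma adjusted p = 0.0116), -0.06 ± 0.04 for si-RAB23-9 over si-NC (0.313) and -0.31 ± 0.04 for si-RAB23-9 over si-RAB23-1 (0.00501). The call against si-NC was lost without si-NC replicate 1 (0.0546) or 2 (0.0788), and the call between the siRNAs held without any 1 library (0.0155 to 0.0484).

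NDUFB10, an accessory subunit of the membrane arm, fell with si-RAB23-1. It had 67.3 and 64.2 FPKM with si-RAB23-9, 55.1 and 59.4 FPKM with si-RAB23-1, and 67.1 and 68.6 FPKM with si-NC. The log2 fold change was -0.24 ± 0.05 for si-RAB23-1 over si-NC (limma adjusted p = 0.0264), and 0.20 ± 0.05 for si-RAB23-9 over si-RAB23-1 (0.0379). Without any 1 library other than si-RAB23-1 replicate 2 both calls were lost, with an adjusted p of 0.0541 to 0.138 against si-NC and 0.0737 to 0.171 between the siRNAs. Both were also lost with no filter, with the replicate block and with only the 4 libraries compared (adjusted p up to 0.0786 and 0.104). Without either si-RAB23-9 library the log2 fold change against si-NC stayed at -0.24.

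With si-RAB23-9 against si-NC, NDUFB4 fell and NDUFS6 rose. NDUFS6, a zinc-binding subunit of the peripheral arm, had 42.2 and 43.4 FPKM with si-RAB23-9, 40.4 and 40.7 FPKM with si-RAB23-1, and 38.0 and 38.7 FPKM with si-NC, a log2 fold change of 0.15 ± 0.03 for si-RAB23-9 over si-NC (limma adjusted p = 0.0360). NDUFB4, of the membrane arm, had 44.6 and 43.6 FPKM with si-RAB23-9, 47.5 and 47.6 FPKM with si-RAB23-1, and 50.8 and 51.1 FPKM with si-NC, a log2 fold change of -0.20 ± 0.03 for si-RAB23-9 over si-NC (limma adjusted p = 0.0141). In both genes the si-RAB23-1 libraries lay between the other groups and did not pass against either. Both calls were lost without si-RAB23-9 replicate 1 or 2 or si-NC replicate 1 or 2, with adjusted p of 0.126 to 0.200 for NDUFS6 and 0.0770 to 0.110 for NDUFB4. The NDUFS6 call was also lost with no filter, under quantile normalization, with the replicate block and in both voom fits (adjusted p up to 0.0990), and the NDUFB4 call held in all of these.

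Other accessory subunits passed where si-RAB23-9 was set against si-RAB23-1. NDUFB6, of the membrane arm, had 14.9 and 13 FPKM with si-RAB23-9, 20.7 and 19.2 FPKM with si-RAB23-1, and 16.5 and 19.8 FPKM with si-NC. It was lower with si-RAB23-9 than with si-RAB23-1 by the largest log2 fold change of all members in this comparison, -0.49 ± 0.10 (limma adjusted p = 0.0256). Against si-NC it was -0.35 ± 0.10 with si-RAB23-9 (0.0773) and 0.13 ± 0.10 with si-RAB23-1 (0.420), with the si-NC libraries far apart. NDUFV3, a small subunit of the peripheral arm, had 5.17 and 4.85 FPKM with si-RAB23-9, 6.27 and 6.08 FPKM with si-RAB23-1, and 5.55 and 5.75 FPKM with si-NC. NDUFB3 had 23.7 and 24.0 FPKM with si-RAB23-9, 28.6 and 26.9 FPKM with si-RAB23-1, and 24.8 and 25.6 FPKM with si-NC. For both, the si-NC libraries lay between the siRNAs and neither siRNA passed against them. NDUFV3 fell by 0.26 (limma adjusted p = 0.0233) and NDUFB3 by 0.21 (0.0238) with si-RAB23-9 relative to si-RAB23-1. NDUFB5 fell by 0.20 (0.0306) and NDUFA6 rose by 0.17 (0.0490) in the same comparison. These calls were lost without some library: NDUFB6 without either si-RAB23-9 or either si-RAB23-1 library (0.0555 to 0.123), NDUFA6 without any 1 of the 6 libraries (0.0636 to 0.209), and NDUFV3, NDUFB3 and NDUFB5 without any 1 library other than si-RAB23-1 replicate 2 (0.0520 to 0.161). With no filter all 5 were lost (0.0903 for NDUFB6), and with only the 4 libraries compared all but NDUFB6 were. NDUFA6 was also lost under quantile normalization and the replicate block (adjusted p up to 0.114), and NDUFB3 under voom with library totals (adjusted p up to 0.0680).

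Both catalytic subunits of complex II rose with si-RAB23-9, and SDHB also rose with si-RAB23-1. SDHB, the iron-sulfur subunit, had 42.4 and 40.9 FPKM in si-RAB23-9 libraries, 43.5 and 42.1 FPKM in si-RAB23-1 libraries, and 36.8 and 35.4 FPKM in si-NC libraries. All 4 libraries with a RAB23 siRNA were above both si-NC libraries. The log2 fold change of SDHB was 0.20 ± 0.04 with si-RAB23-9 (limma adjusted p = 0.0298) and 0.24 ± 0.04 with si-RAB23-1 (limma adjusted p = 0.0177). SDHA, the flavoprotein subunit, had 18.5 and 18.3 FPKM with si-RAB23-9, 16.5 and 16.3 FPKM with si-RAB23-1, and 15.5 and 16.1 FPKM with si-NC. It was highest with si-RAB23-9, by a log2 fold change of 0.21 ± 0.04 over si-NC (limma adjusted p = 0.0222) and 0.16 ± 0.04 over si-RAB23-1 (0.0379).

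The membrane anchors of complex II did not pass in any comparison. SDHC had 5.44 and 4.92 FPKM with si-RAB23-9, 5.32 and 5.16 FPKM with si-RAB23-1, and 4.91 and 5.25 FPKM with si-NC, and SDHD had 15.3 and 13.3 FPKM, 14.3 and 12.2 FPKM, and 13.9 and 15.5 FPKM in the same groups. In both genes the groups overlapped. SDHA has expressed pseudogenes, and reads assigned to them came to 50.6% of those assigned to SDHA. SDHAP1, the main one, had 21.7 and 23.5 FPKM with si-RAB23-9, 20.6 and 20.4 FPKM with si-RAB23-1, and 20.2 and 21.3 FPKM with si-NC, and did not pass in any comparison (limma adjusted p of 0.118 to 0.867). With si-RAB23-9 the SDHB and SDHA calls against si-NC were lost without si-RAB23-9 replicate 1 or 2 or si-NC replicate 1 or 2 (adjusted p of 0.0954 to 0.159 and of 0.0891 to 0.128). The SDHB call with si-RAB23-9 was also lost with no filter and under quantile normalization (adjusted p up to 0.0691). The SDHB call with si-RAB23-1 was lost without si-RAB23-1 replicate 1 (0.0626) or si-NC replicate 1 (0.0714) or 2 (0.105), and the SDHA call between the siRNAs without any 1 of the 6 libraries (0.0696 to 0.167), with no filter, with the replicate block and with only the 4 libraries compared (up to 0.0698).

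In complex III, 1 member passed. UQCRB, which binds ubiquinone in the complex, had 16.9 and 16.4 FPKM in si-RAB23-9 libraries, 20.2 and 19.1 FPKM in si-RAB23-1 libraries, and 19.5 and 19.9 FPKM in si-NC libraries. It was lowest with si-RAB23-9, by -0.23 ± 0.04 against si-NC (limma adjusted p = 0.0245) and -0.23 ± 0.04 against si-RAB23-1 (limma adjusted p = 0.0200). The call against si-NC was lost without si-RAB23-9 replicate 1 or 2 or si-NC replicate 1 or 2 (0.105 to 0.143) and with no filter (0.0568), and that between the siRNAs without si-RAB23-1 replicate 1 (0.0641) or si-RAB23-9 replicate 1 (0.0842) or 2 (0.116).

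The other members of complex III stayed under the threshold. UQCRFS1, the Rieske iron-sulfur protein, had 32.4 and 31.3 FPKM with si-RAB23-9, 29.1 and 30.9 FPKM with si-RAB23-1, and 32.3 and 33.5 FPKM with si-NC. UQCR10 had the lowest log2 fold change of the complex with si-RAB23-1, -0.14 ± 0.05 (limma adjusted p = 0.103), and UQCRQ the highest, 0.02 ± 0.03 (0.779). UQCRH had the highest with si-RAB23-9, 0.03 ± 0.05 (0.761), and UQCRHL the highest between the siRNAs, 0.10 ± 0.11 (0.534). CYC1, the cytochrome c1 subunit, whose name is outside the rule, was higher with si-RAB23-9 than with si-RAB23-1 by 0.14 (limma adjusted p = 0.0429), a call lost in 5 of 6 fits without 1 library and in 4 of the 9 other alternatives (up to 0.197).

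COX7A2L had the largest fall of any member against si-NC. It is related to COX7A2 and is known for joining complexes III and IV into supercomplexes. COX7A2L had 12.4 and 12.5 FPKM in si-RAB23-9 libraries, 18.6 and 16.8 FPKM in si-RAB23-1 libraries, and 17.6 and 17.9 FPKM in si-NC libraries. Both si-RAB23-9 libraries lay below the other 4, which overlapped each other. The log2 fold change was -0.48 ± 0.05 for si-RAB23-9 over si-NC (limma adjusted p = 0.00671) and -0.47 ± 0.05 for si-RAB23-9 over si-RAB23-1 (limma adjusted p = 0.00501), and -0.01 ± 0.05 for si-RAB23-1 over si-NC (0.950). The call between the siRNAs held without any 1 library (0.00722 to 0.0423), and the call against si-NC was lost without si-RAB23-9 replicate 1 (0.0546) or 2 (0.0610) or si-NC replicate 1 (0.0529) or 2 (0.0599), at a fold change of -0.49 to -0.47.

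COX7A2 itself had 57.8 and 58.5 FPKM with si-RAB23-9, 70.6 and 63.8 FPKM with si-RAB23-1, and 66.9 and 66.0 FPKM with si-NC. It fell by 0.20 (log2) with si-RAB23-9 relative to si-RAB23-1 (limma adjusted p = 0.0442), a call that was lost without any 1 library other than si-RAB23-1 replicate 2 (0.0739 to 0.168), with no filter, with the replicate block and with only the 4 libraries compared (up to 0.124), and its difference from si-NC was -0.19 ± 0.05 (0.0695). The other 11 members of complex IV that were tested did not pass in any comparison. COX6A1 was nearest with si-RAB23-1, at 0.18 ± 0.04 over si-NC (limma adjusted p = 0.0510), and COX7A1, at about 1 FPKM, had the lowest value, -0.24 ± 0.11 (0.207). With si-RAB23-9, COX5A had the highest value over si-NC, 0.09 ± 0.04 (0.239), and over si-RAB23-1 the highest was that of COX7B, 0.15 ± 0.04 (0.0604).

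In complex V, 3 members of the peripheral stalk and membrane part rose with si-RAB23-1 and none of 19 passed with si-RAB23-9 against si-NC in limma, where 3 had an unadjusted p under 0.05. ATP5MD, a small subunit known for the stability of ATP synthase dimers, had 70.8 and 72.0 FPKM in si-RAB23-9 libraries, 88.3 and 83.6 FPKM in si-RAB23-1 libraries, and 73.3 and 75.3 FPKM in si-NC libraries. ATP5PB, of the peripheral stalk that holds the head still, had 74.8 and 72.3 FPKM with si-RAB23-9, 83.2 and 79.0 FPKM with si-RAB23-1, and 72.4 and 72.6 FPKM with si-NC. ATP5PF, of the same stalk, had 29 and 27.3 FPKM with si-RAB23-9, 31.3 and 30.1 FPKM with si-RAB23-1, and 26.4 and 26.7 FPKM with si-NC. In all 3 genes the si-RAB23-1 libraries were above the other 4. The log2 fold change of si-RAB23-1 over si-NC was 0.21 ± 0.04 for ATP5MD (limma adjusted p = 0.0227), 0.16 ± 0.04 for ATP5PB (0.0437) and 0.20 ± 0.04 for ATP5PF (0.0332). Each of these calls was lost without any 1 library other than si-RAB23-1 replicate 2, with adjusted p of 0.0553 to 0.173. All 3 were also lost with no filter and with only the 4 libraries compared, and ATP5PB under quantile normalization and the replicate block as well (adjusted p up to 0.0627 for ATP5MD, 0.105 for ATP5PB and 0.0767 for ATP5PF). ATP5PF shares 23.1% of its exon bases with genes on the other strand, GABPA among them, and the sources used here do not say whether the counting used strand.

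Between the siRNAs, 4 members of complex V passed. ATP5MD fell by 0.26 with si-RAB23-9 relative to si-RAB23-1 (limma adjusted p = 0.00984). ATP5MC1 had 24.6 and 25 FPKM with si-RAB23-9, 29.6 and 30.6 FPKM with si-RAB23-1, and 27.8 and 25.8 FPKM with si-NC, and fell by 0.27 (0.0159). The other c-ring genes did not pass. ATP5MC2 had 27.4 and 28.7 FPKM with si-RAB23-9, 29.3 and 28.4 FPKM with si-RAB23-1, and 30.4 and 30.6 FPKM with si-NC, and ATP5MC3 lay between 32.6 and 35.7 FPKM in all libraries. ATP5IF1, the protein that blocks ATP synthase from running backwards, had 33.8 and 33.5 FPKM with si-RAB23-9, 30.2 and 29 FPKM with si-RAB23-1, and 30.5 and 30.9 FPKM with si-NC, and rose by 0.18 (0.0236). ATP5F1B, with the values given above, rose by 0.13 (0.0485). The ATP5MD and ATP5MC1 calls were lost without si-RAB23-9 replicate 1 or 2 (0.0621 to 0.0876), the ATP5IF1 call without any 1 library other than si-RAB23-1 replicate 1 (0.0502 to 0.121) and the ATP5F1B call without any 1 of the 6 (0.0559 to 0.219). With only the 4 libraries compared ATP5IF1 (0.0562) and ATP5F1B were lost, and ATP5F1B with no filter too (up to 0.173).

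The other core subunits of the ATP synthase head and stalk did not pass. ATP5F1A, the alpha subunit, lay between 24.4 and 27.0 FPKM in all libraries, ATP5F1C (gamma) between 66.7 and 72.2 FPKM and ATP5F1E (epsilon) between 20.8 and 23.8 FPKM. ATP5F1D (delta) had 36.3 and 35.6 FPKM with si-RAB23-9, 28.2 and 32.9 FPKM with si-RAB23-1, and 33.2 and 32.0 FPKM with si-NC, with the largest positive value of the complex between the siRNAs, 0.23 ± 0.07 (limma adjusted p = 0.0774). ATP5MG had the lowest value with si-RAB23-9 over si-NC, -0.13 ± 0.11 (0.514).

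**Figure D3:**
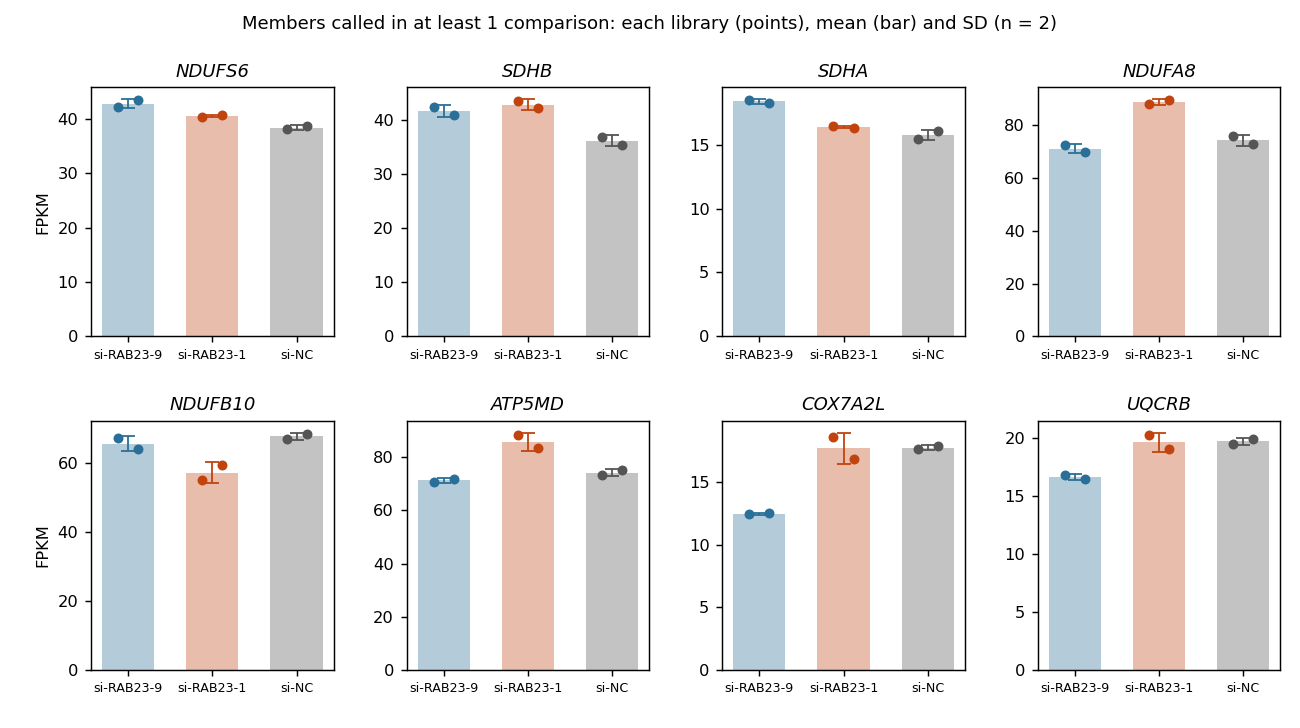
FPKM of 8 members that passed in at least 1 comparison, with each library as a point, the group mean as a bar and the SD (n = 2) as a whisker, si-RAB23-9 at left, si-RAB23-1 in the middle and si-NC at right. SDHB is higher with both RAB23 siRNAs, NDUFS6 with si-RAB23-9, COX7A2L and UQCRB are lower with si-RAB23-9, and NDUFA8 and ATP5MD are higher with si-RAB23-1.

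Summed over the members of a complex, the levels were close in all groups. Complex I summed to 1101 and 1099 FPKM in si-RAB23-9 libraries, 1144 and 1138 FPKM in si-RAB23-1 libraries, and 1131 and 1119 FPKM in si-NC libraries. Complex II summed to 81.6 and 77.4 FPKM with si-RAB23-9, 79.5 and 75.8 FPKM with si-RAB23-1, and 71.2 and 72.2 FPKM with si-NC. All 4 libraries with a RAB23 siRNA lay above the si-NC libraries, and SDHB makes up about as much of that sum as the other 3 members together. Complex III summed to 508.4 and 509.0 FPKM with si-RAB23-9, 520.5 and 494.8 FPKM with si-RAB23-1, and 522.6 and 521.8 FPKM with si-NC, so that all 4 libraries with a RAB23 siRNA lay below the si-NC libraries, the nearest by a small margin. Complex IV summed to 916.0 and 916.1 FPKM with si-RAB23-9, 956.5 and 934.5 FPKM with si-RAB23-1, and 949.0 and 953.1 FPKM with si-NC. Complex V summed to 896.0 and 880.8 FPKM with si-RAB23-9, 904.8 and 870.3 FPKM with si-RAB23-1, and 893.5 and 883.6 FPKM with si-NC. The si-RAB23-9 sums of complexes I and IV were also below both si-NC libraries, and those of complex V overlapped them. These sums are given as a description, with no test.

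**Figure D4:**
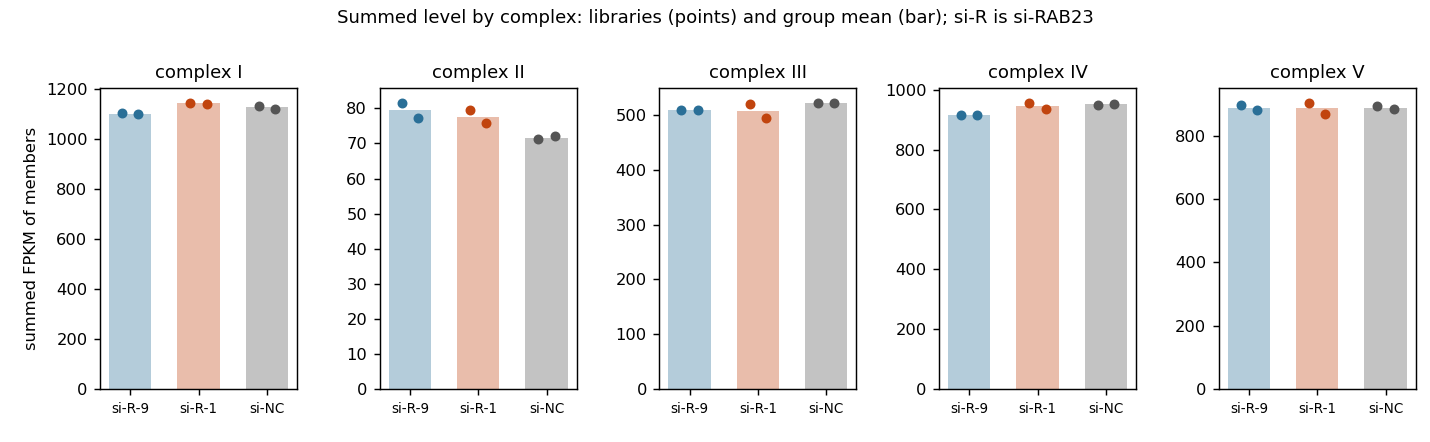
Summed FPKM of the members of each complex in each library (points) and its group mean (bars from 0), with si-RAB23-9, si-RAB23-1 and si-NC from left to right in each panel. Complex II is higher and complex III lower in all 4 libraries with a RAB23 siRNA than in the si-NC libraries.

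The 13 mitochondrially encoded subunits had 14.5 and 14.4 times the summed FPKM of the nuclear members with si-RAB23-9, 14.5 and 14.3 times with si-RAB23-1, and 14.7 and 14.9 times with si-NC. None of the 13 passed with si-RAB23-9 against si-NC in limma (4 had an unadjusted p under 0.05), and 2 fell with si-RAB23-1, the complex IV core genes MT-CO3 (-0.18 on the log2 scale, limma adjusted p = 0.0110) and MT-CO2 (-0.13, 0.0229). Of all genes tested, 13.3% passed with si-RAB23-9, 15.4% with si-RAB23-1 and 21% between the siRNAs. Between the siRNAs, MT-CO3 rose by 0.14 (0.0170) and MT-ND6 fell by 0.20 (0.0239) with si-RAB23-9. Each of these 4 calls was lost with no filter and in 2 to 5 of the 6 fits without 1 library (adjusted p up to 0.0742, 0.124, 0.118 and 0.133 in those fits, in the order given).

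Assembly factors build the complexes and are not part of them. Of 49 tested, 1 rose and none fell with si-RAB23-9, where 13.3% of all genes passed, and 5 rose and none fell with si-RAB23-1, where 15.4% of all genes passed. UQCC3, for complex III, rose with both, by 0.40 with si-RAB23-9 (limma adjusted p = 0.0423) and 0.39 with si-RAB23-1 (0.0414). With si-RAB23-1, UQCC1 rose by 0.30 (0.0182), the copper chaperone COX17 by 0.38 (0.0176), COA4, also of complex IV assembly, by 0.26 (0.0174) and NDUFAF7, a methyltransferase of complex I assembly, by 0.28 (0.0372). Between the siRNAs, where 21% of all genes passed, 1 rose and 6 fell with si-RAB23-9, among them UQCC1 by 0.38 (0.00816) and COX17 by 0.32 (0.0224). Both UQCC3 calls were lost without any 1 of the 6 libraries (adjusted p of 0.0540 to 0.182) and in 4 of the 9 other alternatives. The other calls against si-NC were lost without either si-NC library, and those of UQCC1, COA4 and NDUFAF7 without si-RAB23-1 replicate 1 too (adjusted p up to 0.1003 for UQCC1, 0.0989 for COX17, 0.0990 for COA4 and 0.172 for NDUFAF7). Between the siRNAs the UQCC1 call was lost without si-RAB23-9 replicate 2 (0.0504), and the COX17 call without any 1 library other than si-RAB23-1 replicate 2 (up to 0.104).

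Of the 12 tested regulators of mitochondrial biogenesis, 2 rose and none fell with si-RAB23-9, and 4 rose and 1 fell with si-RAB23-1, beside the 13.3% and 15.4% of all genes that passed in these comparisons. PPRC1, a coactivator of the PGC-1 family, had 16.8 and 17.2 FPKM with si-RAB23-9, 18.9 and 19.1 FPKM with si-RAB23-1, and 14.1 and 14 FPKM with si-NC. It rose by 0.26 with si-RAB23-9 (limma adjusted p = 0.0113) and 0.41 with si-RAB23-1 (0.00363). MYC rose by 0.51 (0.0120) and by 1.03 (0.00272) in the same 2 comparisons. GABPA, the DNA-binding subunit of GABP, had 9.34 and 8.29 FPKM with si-RAB23-9, 7.44 and 6.91 FPKM with si-RAB23-1, and 10.1 and 10.9 FPKM with si-NC, and fell by 0.49 with si-RAB23-1 (0.0129). With si-RAB23-1 the PPRC1 and MYC calls held without any 1 library, and the GABPA call was lost without either si-NC library (up to 0.0840). With si-RAB23-9 the PPRC1 and MYC calls were lost without either si-RAB23-9 or either si-NC library (up to 0.0909 and 0.0824). NRF1 lay between 4.49 and 5.33 FPKM in all libraries and did not pass, and PPARGC1A, which encodes PGC-1 alpha, had no read in 5 of the 6 libraries.

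Of the 13 citric acid cycle genes, 2 rose and 1 fell with si-RAB23-9, and 2 rose and none fell with si-RAB23-1, beside the 13.3% and 15.4% of all genes that passed. Citrate synthase (CS) rose by 0.19 (limma adjusted p = 0.0388) and fumarase (FH) fell by 0.16 (0.0430) with si-RAB23-9. MDH2 rose by 0.15 with si-RAB23-1 (0.0252). The CS and FH calls were lost without either si-RAB23-9 or either si-NC library (adjusted p up to 0.184 and 0.209), and the MDH2 call without any 1 of the 6 (0.0531 to 0.143).

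Since the members share regulators, their promoters were searched for 3 exact words on both strands: GCGCATGC for NRF1, CCGGAAG for ETS factors and AAGATGGC for YY1. The window was 250 bases before to 50 bases after the RefSeq start (GRCh38.p14), and 64 of the 80 tested members had an entry. Any of the words occurred in 33 of these 64 promoters (51.6%), against 18.4% of 22199 promoters of protein-coding genes. The members had all passed the filter on low values, whereas the other promoters were not limited to genes with RNA in these cells. The NRF1 word occurred in 20.3% of the member promoters against 3.74%, the ETS word in 31.2% against 12.8% and the YY1 word in 15.6% against 3.53%. SDHB and ATP5PF held all 3 words. The promoters of SDHB and SDHA are shown because both genes rose with si-RAB23-9, and that of NDUFA8 because it rose with si-RAB23-1 alone, with the words in capitals. The SDHB promoter is at chr1:17053983-17054282 on the minus strand, SDHA at chr5:218070-218369 on the plus strand and NDUFA8 at chr9:122159730-122160029 on the minus strand.
SDHB: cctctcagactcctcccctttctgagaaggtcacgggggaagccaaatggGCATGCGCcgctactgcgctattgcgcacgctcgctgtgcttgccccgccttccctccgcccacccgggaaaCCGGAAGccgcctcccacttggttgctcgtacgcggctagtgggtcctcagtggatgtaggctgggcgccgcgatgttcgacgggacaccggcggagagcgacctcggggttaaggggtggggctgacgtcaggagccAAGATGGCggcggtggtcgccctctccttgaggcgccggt
SDHA: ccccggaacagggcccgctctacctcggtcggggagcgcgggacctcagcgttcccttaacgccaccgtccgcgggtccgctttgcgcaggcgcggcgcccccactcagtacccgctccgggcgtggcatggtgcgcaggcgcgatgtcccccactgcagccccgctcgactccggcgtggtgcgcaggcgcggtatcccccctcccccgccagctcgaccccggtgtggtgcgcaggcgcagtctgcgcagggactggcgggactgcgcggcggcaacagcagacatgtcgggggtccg
NDUFA8: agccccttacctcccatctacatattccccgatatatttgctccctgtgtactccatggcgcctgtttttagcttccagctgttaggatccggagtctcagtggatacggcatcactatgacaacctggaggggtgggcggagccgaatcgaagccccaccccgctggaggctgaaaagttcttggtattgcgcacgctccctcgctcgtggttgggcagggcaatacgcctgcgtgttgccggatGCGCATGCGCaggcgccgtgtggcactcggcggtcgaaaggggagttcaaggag
SDHB carries all 3 words, SDHA none of these exact words, and NDUFA8 the NRF1 word on both strands in overlapping positions. The NRF1 word also occurred in the promoters of NDUFS6, which rose with si-RAB23-9, and of NDUFB4, which fell. The part of these words in any change was not tested. A match is a run of letters and not a tested site. Other spellings of these sites were not searched, so a promoter without a word may still hold such a site.

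An siRNA can also lower transcripts whose 3′ UTR pairs with its seed, but the sources used here do not give the siRNA sequences. From earlier results of these data, 2 words of 7 bases were known to be common in the 3′ UTRs of genes that fell, GACATAT with si-RAB23-1 and AAGTTAA with si-RAB23-9. Over 10940 genes scanned in GENCODE 29, 17.3% of the 2025 carriers of AAGTTAA fell with si-RAB23-9 against 4.22% of the others, and 25.6% of the 928 carriers of GACATAT fell with si-RAB23-1 against 7.11% of the others. The words were picked from these same data, so a higher share among carriers was fixed in advance and is no test. Carriers and others were not matched on 3′ UTR length. Of the 80 tested members, 7 carry AAGTTAA in at least 1 annotated 3′ UTR, and 1 of these fell with si-RAB23-9 against si-NC, COX7A2L. Of the 3 that fell with si-RAB23-9, UQCRB and NDUFB4 do not carry it. The sites in COX7A2L (chr2:42349726-42349732, minus strand, 1 of 4 transcripts) and in NDUFB6 (chr9:32553857-32553863, minus strand, 3 of 3 transcripts), the lowest members with si-RAB23-9, are shown with the word in capitals, beside that of NDUFA8 (chr9:122144118-122144124, minus strand, 1 of 1 transcript), a carrier that did not pass with si-RAB23-9 against si-NC.
COX7A2L: cagactcaataAAGTTAAcatttataaca
NDUFB6: gattatgtaaaAAGTTAAaaggcttatga
NDUFA8: cattaacaaaaAAGTTAActtatgtgact
Relative to si-RAB23-1, COX7A2L, NDUFB6 and NDUFA8 were called lower with si-RAB23-9 (log2 fold change -0.47, -0.49 and -0.31). NDUFA8 was also higher with si-RAB23-1 than with si-NC. The other members called lower between the siRNAs do not carry AAGTTAA. The other carriers were SDHC, NDUFB2, NDUFB9 and ATP5F1E, and none of them passed in any comparison. GACATAT occurs in ATP5PB, COX7B and NDUFS1, of which ATP5PB rose with si-RAB23-1 and the other two did not pass. NDUFB10, the member that fell with si-RAB23-1, does not carry it. Among the regulators, the 3′ UTR of GABPA carries GACATAT in 2 of 2 transcripts. GABPB1 (1 of 8 transcripts), YY1 (1 of 3) and PPARGC1A (2 of 5) carry it too, and only GABPA was called lower with si-RAB23-1. PPRC1, which rose with si-RAB23-9, carries AAGTTAA in 2 of 3 transcripts, and PPARGC1B carries it in 1 of 5. The part of such words in any of these changes was not tested.

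Replicates of the members agreed closely. The median coefficient of variation between the 2 libraries of a group was 2.30% with si-RAB23-9, 3.23% with si-RAB23-1 and 2.45% with si-NC, against 4.07%, 5.45% and 3.94% over all genes tested. Members and all genes were not matched on level here. Of the 80 members, 50 were higher in replicate 1 with si-RAB23-9, 58 with si-RAB23-1 and 32 with si-NC.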

How the data were processed

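FPKM per gene in 6 libraries were deposited by the authors in 1 table. Per the submitters' processing notes the tools were STAR 2.5.1b, RSEM 1.2.29, Trimmomatic 0.36, FastQC and edgeR 3.8.5, with no role stated, and the build was hg19, yet all 58735 gene coordinates equal GENCODE 29 on GRCh38. Multiplied by gene length, 100% of the FPKM values were whole multiples of 1 read within 0.01, which gave recovered reads. Exons shared with other genes were counted from GENCODE 29.

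Genes with at least 1 FPKM in at least 2 libraries (14352) were fitted as log2(FPKM + 1) in limma 3.58.1 (R 4.3.3) with 3 group means, a mean-variance trend and 3 residual degrees of freedom, so fold changes of low genes are understated. Groups came from the titles. p-values were adjusted by Benjamini-Hochberg over all genes tested and called under 0.05. The fit was also run on simulated data with the same spread beyond counting noise for all genes and groups. That run does not show how the fit behaves where groups differ in spread. The members and lists were chosen with earlier results of these data known. Named were paralog pairs, core subunits, the 6 highest members, called members (at most 12 a comparison, those beyond it as values for completeness), and the highest and lowest member of each complex. Alternatives were a pseudocount of 0.1, other filters, median-of-ratios or quantile scaling, a replicate block, fits to 4 libraries, voom on recovered reads and each library left out. Intervals were not given, and the depth limits members of few reads. The values of 1 member and of 1 gene of the other lists are not reported here, though counts, medians and sums include them.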

Additional observations from a re-analysis of the deposited data

Results flagged for a closer look

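The 15 members below differed between the 2 RAB23 siRNAs in a direct test of si-RAB23-9 minus si-RAB23-1 (limma, adjusted p under 0.05 over all genes tested). Lower with si-RAB23-9 were NDUFB6 (log2 fold change -0.49), COX7A2L (-0.47), NDUFA8 (-0.31), ATP5MC1 (-0.27), ATP5MD (-0.26), NDUFV3 (-0.26), UQCRB (-0.23), NDUFB3 (-0.21), COX7A2 (-0.20) and NDUFB5 (-0.20). Higher with si-RAB23-9 were NDUFB10 (0.20), ATP5IF1 (0.18), NDUFA6 (0.17), SDHA (0.16) and ATP5F1B (0.13). Of these, NDUFA8 and COX7A2L kept the call without any 1 of the 6 libraries.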

How the results depend on the processing

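No log2 fold change of a called member changed sign under any alternative tried. Counts in this section are of members alone, without the share of all genes that passed in each alternative. The number of members called with si-RAB23-9 against si-NC was 7, 4 without a filter, 10 with voom, and 0 to 9 with 1 library left out. The count with si-RAB23-1 was 7, 3 without a filter, 13 at a mean FPKM of at least 5, 3 with only its 4 libraries, 16 with voom on library totals, 17 with voom on median-of-ratios sizes, and 1 to 10 with 1 library left out. Between the siRNAs it was 15, 6 without a filter, 6 with only those 4 libraries, and 2 to 15 with 1 library left out. The median member log2 fold change with si-RAB23-1 was -0.0441 under quantile normalization and -0.04 under voom on library totals, and between the siRNAs it was -0.00332 under voom on library totals.

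With same-numbered libraries as a replicate block, 6 members were called with si-RAB23-9, 6 with si-RAB23-1 and 11 between the siRNAs. The deviations of same-numbered libraries had correlations of 0.061, -0.0562 and -0.0158 over genes, so the block was not taken as a pairing. The log2 ratio of the complex I sum under median-of-ratios scaling was -0.042 with si-RAB23-9 and 0.013 with si-RAB23-1. With 1 library left out, the log2 ratio of the summed level to si-NC with si-RAB23-1 was 0.013 to 0.028 for complex I, -0.0777 to -0.00459 for complex III, -0.025 to 0.0082 for complex IV and -0.03 to 0.0262 for complex V. That of complex I with si-RAB23-9 was -0.0395 to -0.0245. Between the siRNAs it was -0.0332 to 0.0399 for complex III, -0.062 to -0.029 for complex IV and -0.0264 to 0.0298 for complex V. The complex II sum was 0.11 to 0.19 with si-RAB23-9 and 0.081 to 0.15 with si-RAB23-1. The alternatives for the sums and for genes outside the members were chosen after seeing the data. The cause of these shifts was not tested. The 2 libraries of each group, and reads as few as 450 over all libraries for NDUFV2, limit what could be called.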
